A study of Arabidopsis thaliana with 9 samples.

Results

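EMB genes (EMBRYO DEFECTIVE) are Arabidopsis thaliana genes whose loss stops the embryo before the seed matures. Many encode parts of the basic machinery of the cell: protein synthesis, splicing, DNA replication, and the translation and RNA processing of chloroplasts and mitochondria. GRF proteins, short for growth-regulating factors, are transcription factors of plants known for promoting cell proliferation and leaf growth, with GIF proteins as coactivators and the microRNA miR396 as repressor. The measurements below show where peaks of GRF1 and GRF3 lay relative to the EMB genes.

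The EMB genes were the protein-coding genes whose main symbol is EMB followed by digits, in capitals or lower case. There were 160 of 27444 protein-coding genes on chromosomes 1 to 5, 112 of them in capitals, and 159 also carry the words embryo defective among their synonyms. They were chosen by name. The group itself was proposed with earlier results of these data in view, so its counts are a description beside the share of all genes and carry no test.

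The study used whole 2-week-old plants of strain Ws and chromatin immunoprecipitation sequencing with an antibody against GFP, which recovers the DNA that a GFP-tagged protein sits on. In 3 groups of 3, plants carried 35S:GFP, 35S:GRF1-GFP or 35S:GRF3-GFP. All transgenes were driven by 35S, a promoter active in most tissues, so the tagged factors were not limited to cells that normally make them. No list for the 3 samples of 35S:GFP was at hand, and they are not analysed here. The other 6 libraries each had a list of peaks, 1410, 1122 and 1878 for GRF1 and 2258, 2301 and 5944 for GRF3 (replicates 1, 2 and 3). GRF3 replicate 3 stands apart by its length, so counts over several libraries are given without it too. The labels name 3 replications of a planting in blocks and do not say whether the replicates were processed apart. No list gives read counts, and the depth is unknown.

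Few EMB genes carried a peak, and the share was below that of all protein-coding genes in each of the 6 libraries. A gene was counted when its span held a peak summit or had one at most 1 kb away. With GRF1, 1, 5 and 4 of the 160 EMB genes were counted in replicates 1, 2 and 3, which is 0.625%, 3.12% and 2.50%, beside 3.13%, 4.61% and 4.03% of all genes. With GRF3, 3, 4 and 17 were counted, which is 1.88%, 2.50% and 10.6%, beside 7.38%, 5.67% and 14.5% of all genes.

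EMB genes were longer than other genes, so a share that ignored length would have favoured them. The median span was 2989 bp, against 2075 bp for the other protein-coding genes, and ran from 420 to 14915 bp. Weighted to the EMB genes' lengths in 10 classes, the share of other genes with a peak came to 3.36%, 5.47% and 4.62% for GRF1 (replicates 1, 2 and 3) and 7.94%, 6.01% and 16.7% for GRF3. The EMB share divided by this weighted share was 0.186, 0.572 and 0.541 for GRF1 (mean 0.433 ± 0.214, SD, n = 3). For GRF3 it was 0.236, 0.416 and 0.637 (mean 0.430 ± 0.201, SD, n = 3). Every library was below 1, and the means of both factors differed by far less than the spread between libraries.

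**Figure D1:**
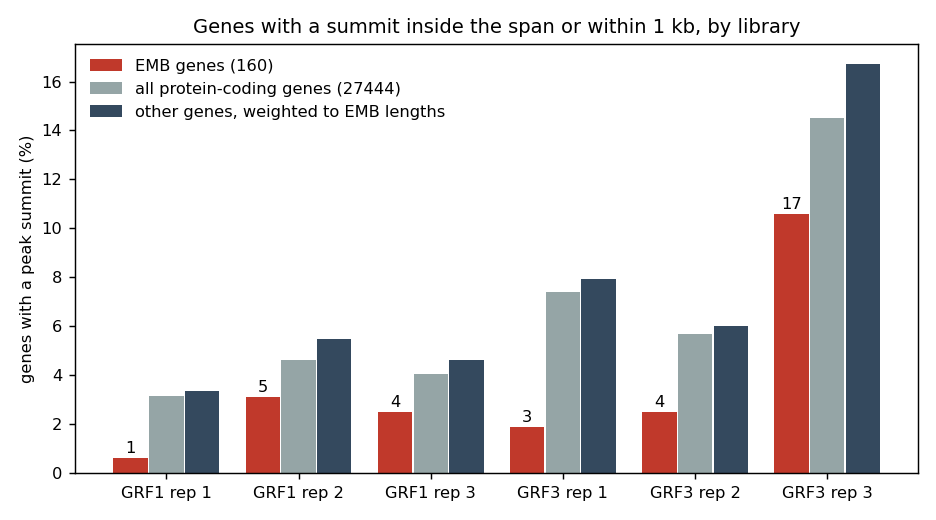
Percent of genes with a peak summit inside the span or within 1 kb, by library, for the EMB genes, all protein-coding genes and the other genes weighted to the EMB genes' lengths; numbers over the red bars count EMB genes. The EMB bar is the lowest of the 3 in each library, from 1 gene in GRF1 replicate 1 to 17 in GRF3 replicate 3.

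The longest list, GRF3 replicate 3, had the most EMB genes with a peak. Their number averaged 3.33 ± 2.08 for GRF1 and 8.0 ± 7.81 for GRF3 (SD, n = 3), a difference of 4.67 genes that was smaller than the spread between the GRF3 libraries. Without GRF3 replicate 3 the difference was 0.167. With every list reduced to the 1122 peaks of the shortest, it turned to -2.00.

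Taking all libraries, 25 EMB genes had a peak in at least 1 and 135 had none. The 25 are 15.6% of the group, beside 22.0% of all genes and 25.0% of the other genes weighted for length. Of the 25, 19 had a peak in 1 library only, and 13 of these in GRF3 replicate 3 only. Without that library 12 of the 160 had a peak, beside 14.1% of all genes. Peaks in at least 2 libraries were found at 6 EMB genes, beside 8.97% of all genes, and 3 (EMB2820, emb1507 and EMB269) had peaks of both factors, beside 2.80%. Without GRF3 replicate 3 these counts fell to 3 (EMB2279, EMB2771 and EMB2820), beside 6.39% of all genes, and to 1 (EMB2820), beside 1.79%.

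The gap to other genes was wider among the shorter members. Of the 87 EMB genes in the 8 shorter length classes (up to 3310 bp), 7 had a peak in some library, which is 8.05%, against 20.6% of other genes in those classes. Of the 73 in the 2 longest classes, 18 had one, which is 24.7% against 28.0%. Those 2 classes went opposite ways. From 3310 to 4233 bp 7 of 21 EMB genes had a peak, 33.3% against 25.6% of other genes. Of these, EMB2421, EMB25 and EMB2766 had one in GRF3 replicate 3 only. Among the longest genes 11 of 52 had one, 21.2% against 30.4%. The members with a peak had a median span of 4192 bp and those without one 2784 bp. GRF3 replicate 3 alone supplied 13 of the 25 genes in this count. Without it 3 of the 87 shorter members (3.45%, against 13.4% of other genes) and 9 of the 73 longer ones (12.3%, against 17.2%) had a peak. The 2 longest classes were not counted apart without it.

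**Figure D2:**
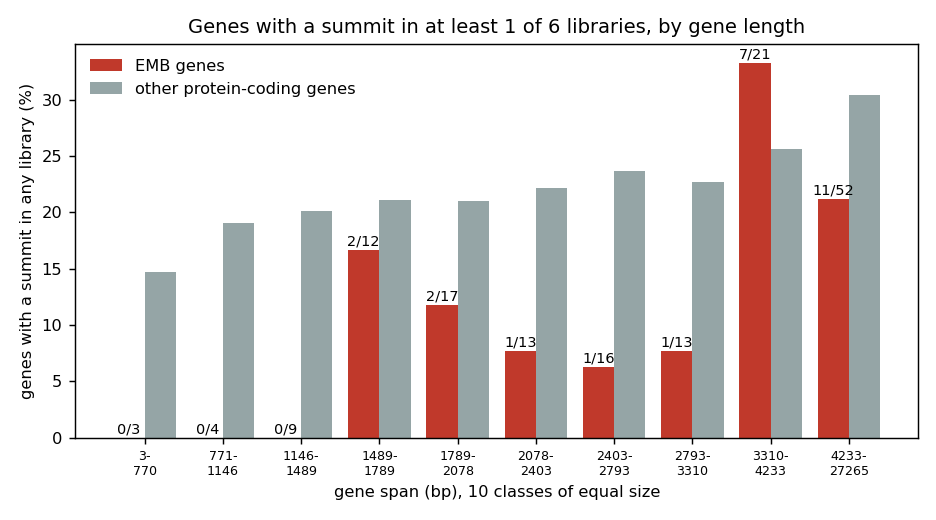
Percent of genes with a summit inside the span or within 1 kb in at least 1 of the 6 libraries (y axis) in 10 classes of gene span (x axis, bp), for EMB and other protein-coding genes; labels give EMB genes with a peak over EMB genes in the class. The classes up to 1489 bp hold 0 EMB genes with a peak, and 7 of 21 in the class from 3310 to 4233 bp.

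Inside the gene span the EMB share was nearer to that of all genes, though not in GRF3 replicate 2 once weighted for length. Summits there were found at 1, 4 and 4 EMB genes in GRF1 replicates 1, 2 and 3 (0.625%, 2.50% and 2.50%, beside 1.18%, 2.10% and 1.59% of all genes). With GRF3 they were found at 3, 2 and 15 (1.88%, 1.25% and 9.38%, beside 3.96%, 2.75% and 9.61%). GRF1 replicates 2 and 3 thus had a higher share of EMB genes than of all genes with a summit inside the span. After weighting for length the EMB share over that of others was 0.875 and 1.14 there, and 0.424 in replicate 1. For GRF3 it was 0.391, 0.371 and 0.783, in replicate 2 below the 0.416 found with the 1 kb flanks included.

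Outside the span fewer EMB genes were found, except in GRF3 replicate 2, which had 2 in either place. Those with a summit within 1 kb and none inside numbered 0, 1 and 0 with GRF1, beside 1.95%, 2.51% and 2.45% of all genes. With GRF3 they numbered 0, 2 and 2, beside 3.42%, 2.92% and 4.91%.

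No EMB gene had a summit within 1 kb of its span in sequence outside every protein-coding gene, in any of the 6 libraries. Among all genes the share with such a summit was 1.56%, 1.72% and 1.96% in GRF1 replicates 1, 2 and 3. In those of GRF3 it was 2.22%, 2.14% and 2.61%. EMB1030, described later, missed that count by 1 to 14 bp in every library. The 6 summits that did lie within 1 kb outside an EMB gene were all inside a neighbouring gene. Summits so placed were found at 0, 2 and 0 EMB genes with GRF1 (beside 0.503%, 0.947% and 0.601% of all genes) and at 0, 2 and 2 with GRF3 (beside 1.49%, 0.991% and 3.12%). In GRF1 replicate 2 these were at emb1473, a chloroplast ribosomal protein gene (218 bp away, inside AT1G78620), and at EMB1135 (425 bp away, inside MC4, a metacaspase gene). In GRF3 replicate 2 they were at emb2458 (486 bp, inside AT3G04330) and emb1513 (501 bp, inside COPT4, a copper transporter gene). In GRF3 replicate 3 they were at EMB3003 (276 bp, inside AT1G34420) and EMB2786 (913 bp, inside DRM3, a gene of the DNA methyltransferase family). EMB genes also had slightly less gene-free sequence beside them: of the 2000 bp in both flanks a median of 1000 bp lay outside every protein-coding gene, against 1135 bp for other genes. Weighted by this free flank in place of length, the EMB share inside the span or within 1 kb was 0.504 times that of others for GRF1. For GRF3 it was 0.486 times. The counts outside the span alone were not weighted by free flank, and its part in them was not tested.

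**Figure D3:**
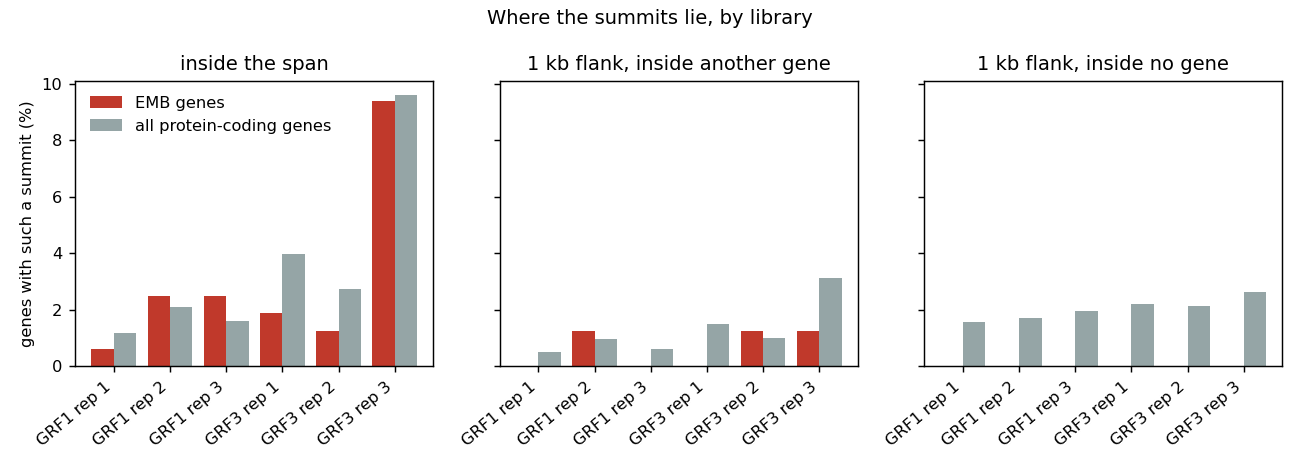
Percent of EMB genes and of all protein-coding genes with a summit inside the span (left), within 1 kb outside it but inside another gene (middle) and within 1 kb outside it and inside no gene (right), by library. The right panel has 0 EMB genes in all 6 libraries, beside 1.56% to 2.61% of all genes.

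Farther out the EMB share was close to that of all genes or above it. The nearest summit lay more than 1 kb and up to 3 kb outside the span of 5, 5 and 5 EMB genes (3.12% each) with GRF1, beside 2.22%, 3.20% and 3.13% of all genes. With GRF3 it did so for 17, 6 and 22 (10.6%, 3.75% and 13.8%), beside 5.14%, 3.72% and 10.03%. Within 3 kb in any library lay 54 of the 160 EMB genes, 33.8% against 35.9% of other genes, and without GRF3 replicate 3 it was 33 of them, 20.6% against 23.6%. With 3 kb as the limit the EMB share averaged 0.715 times the length-weighted share for GRF1 and 0.843 times for GRF3, so the size of the gap depends on the limit.

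The 1 kb limit passed close to the peak of highest fold within 3 kb of any EMB gene. EMB1030 (AT5G22800), a gene for an organellar alanyl-tRNA synthetase, had a summit 1001 to 1014 bp left of its span in all 6 libraries and so was not counted. The peak, at chr5:7614538-7614994 in GRF1 replicate 1, had folds of 53.9, 47.6 and 67.8 with GRF1 (56.4 ± 10.3, SD, n = 3) and 22.4, 10.6 and 17.2 with GRF3 (16.7 ± 5.91, SD, n = 3). Fold is the authors' value, enrichment over the control given to the peak caller. In each list this peak was among the highest, from the 98.3rd to the 99.8th percentile of folds. Its nearest gene was AT5G22799, 192 to 205 bp from the summits. Gene and peak coordinates were taken to match. An offset of a few bases would put EMB1030 inside the limit in some libraries, but not in GRF3 replicate 3, where the summit was 1014 bp away. The other members just outside were EMB2769 at 1087 bp (GRF3 replicate 3) and EMB3010, a cytosolic ribosomal protein S6 gene, at 1101 bp (GRF3 replicate 1). Just inside were EMB2786 at 913 bp, emb1513 at 501 bp and emb2458 at 486 bp.

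Other members had summits between 1 and 3 kb away in several libraries. EMB2785 had a summit 1810 to 1823 bp away in all 3 GRF1 libraries (folds 18.6, 15.7 and 26.2) and in GRF3 replicate 1 (fold 6.12), 89 to 102 bp from AT2G31040. The splicing-related gene emb2444 had one 2036 to 2046 bp away in the 3 GRF3 libraries (folds 9.59, 9.72 and 11) and in no GRF1 library. The gene emb1427 likewise had one 1762 to 1768 bp away in the 3 GRF3 libraries (folds 7.07, 6.06 and 7.78). Others were found in the 3 GRF1 libraries and in no GRF3 library. They lay at emb1220 (2705 to 2725 bp away, mean fold 4.80) and emb2170 (2318 to 2337 bp away, mean fold 4.54). Summits between 1 and 3 kb away in at least 3 libraries were found at 8 of the 160 EMB genes, beside 4.03% of all genes. Without GRF3 replicate 3 they were found at 5 (3.12%), beside 2.16%.

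Among the counted members, consensus regions, peaks overlapping in at least 2 of a factor's 3 libraries, were rare. GRF1 had one at 3 EMB genes (1.88%, beside 3.12% of all genes) and GRF3 at 2 (1.25%, beside 5.52%). Weighted for length, the share of other genes was 3.50% and 5.90%. The GRF1 genes were EMB2771, EMB2279 and EMB2820, and the GRF3 genes EMB1691 and EMB2820. Every one of these regions lay inside the gene span. A single region, the second of GRF3 at EMB2820, was in all 3 libraries of its factor. Without replicate 3 of the factor 0 EMB genes had a region of GRF1 and 0 one of GRF3. Without GRF1 replicate 2, 1 had a GRF1 region, and without GRF3 replicate 1, 1 had a GRF3 region.

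EMB2771 (AT5G05560), which encodes subunit APC1 of the anaphase-promoting complex, a ubiquitin ligase of mitosis, had the highest fold of any EMB gene counted. The GRF1 peak had a fold of 9.50 in replicate 2 and 15.0 in replicate 3 (12.3 ± 3.93, SD, n = 2), with summits 1 bp apart, at chr5:1645806-1646071. Replicate 1 had no peak within 72331 bp of the gene, and the nearest GRF3 summit was 12747 bp away. The peak was 244 and 266 bp wide, and its summit lay 25 and 27 bp from the left edge, 38.9% along a span of 14733 bp.

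EMB2279 (AT1G30610), a gene of the pentatricopeptide repeat family of organellar RNA-binding proteins, showed the same pattern over libraries. Its GRF1 peak at chr1:10850137-10850397 had a fold of 5.82 in replicate 2 and 7.81 in replicate 3 (6.82 ± 1.40, SD, n = 2), with summits 8 bp apart. The nearest summit of GRF1 replicate 1 was 4177 bp away, and that of the GRF3 libraries 9853 bp or more. This peak was 242 and 261 bp wide, and here too the summit lay near the left edge (9 and 18 bp). These 4 peaks at EMB2771 and EMB2279 were the only 4 of the 41 peaks at EMB genes with a fold of at least 4. Thus 0, 2 and 2 EMB genes had such a peak in GRF1 replicates 1, 2 and 3, beside 0.973%, 2.63% and 2.56% of all genes. In the GRF3 libraries 0 EMB genes reached that fold, beside 2.66%, 2.40% and 3.04% of all genes in replicates 1, 2 and 3, and the highest GRF3 fold was 3.17, at EMB3003.

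EMB2820 (AT5G24670), which encodes TAD3, a subunit of the tRNA adenosine deaminase that makes inosine at the wobble position, was the only EMB gene with a peak in more than 2 libraries. It had peaks in 5 of 6, all but GRF1 replicate 2. Peaks in at least 5 libraries were thus found at 1 of the 160 EMB genes, beside 0.823% of all genes, so the group's share was not above that of all genes. The peaks lay in separate stretches of the span. The left one, at chr5:8448240-8448655, was found in GRF1 replicates 1 and 3 (folds 1.46 and 1.68) and GRF3 replicates 1 and 3 (1.97 and 2.07). The right one, at chr5:8450071-8451081, had folds of 1.51 and 1.60 in GRF1 replicates 1 and 3 and of 1.37, 1.67 and 2.14 in the GRF3 libraries (1.73 ± 0.389, SD, n = 3). These folds were low in their lists, between the 0.709th and the 18.3rd percentile. The −log10 q of the right peak was 1.83, 8.10 and 21.1 in GRF3 replicates 1, 2 and 3, against list medians of 5.49, 6.24 and 4.72. In GRF1 replicates 1 and 3 it was 13.0 and 11.8, below the list medians of 14.7 and 15.5. The left peak had 7.96 and 11.1 in those GRF1 libraries, and 11.1 and 13.2 in GRF3 replicates 1 and 3. In GRF3 replicate 3 the right peak's fold of 2.14 was below the list's median of 2.56. The right peak was broad in 3 libraries (738, 987 and 982 bp) and narrower in GRF3 replicates 1 and 2 (295 and 311 bp), which shared 0 bp there.

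**Figure D4:**
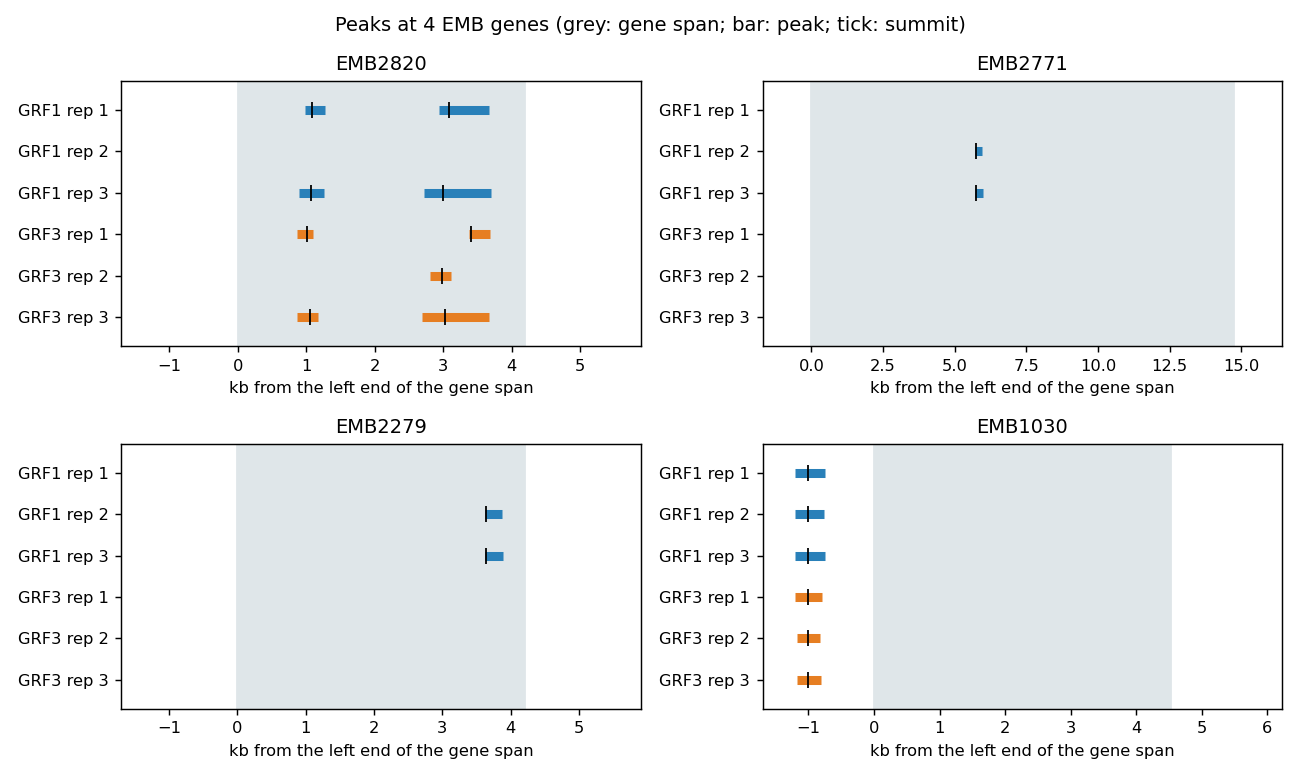
Peaks (bars) and summits (ticks) of the 6 libraries relative to the left end of the gene span (kb, grey area) at EMB2820, EMB2771, EMB2279 and EMB1030. EMB2820 has peaks in separate stretches in 5 libraries, and EMB2771 and EMB2279 have 1 peak each in GRF1 replicates 2 and 3. The summit of the EMB1030 peak lies beyond 1 kb in all 6, though the peak itself reaches nearer to the span.

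EMB1691 (AT4G09980), a homologue of the METTL14 subunit of the RNA adenosine methyltransferase, carried the remaining GRF3 region, near the left end of its span. Its fold was 2.85 in replicate 1 and 2.59 in replicate 3, at chr4:6247988-6248340, with summits 115 bp apart and no peak in replicate 2 or in any GRF1 library.

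The other members with peaks of both factors were emb1507 and EMB269. The gene emb1507, a spliceosomal RNA helicase, had a GRF1 peak in replicate 2 (fold 2.22) and 3 peaks in GRF3 replicate 3 (folds 2.00, 2.49 and 2.44). The summit of the middle one was 6 bp from that of GRF1. EMB269, a chloroplast GTPase of the OBG family, had a GRF1 peak in replicate 3 (fold 2.16) and a GRF3 peak in replicate 3 (fold 2.95). Those peaks shared 4 bp and their summits were 287 bp apart.

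The remaining 19 genes had peaks in 1 library each. Over all 41 peaks at EMB genes, 28 had a fold below the median of their list, and 16 had a −log10 q of at least 5. Several of the 41 belong to EMB2820, so they do not stand for separate genes. The median −log10 q of EMB peaks was 10.5, 5.80 and 11.8 for GRF1 (replicates 1, 2 and 3), against list medians of 14.7, 28.7 and 15.5. For GRF3 it was 3.59, 2.40 and 3.54, against 5.49, 6.24 and 4.72. The genes found in GRF3 replicate 3 only included EMB2773 (SCC2, which loads cohesin onto chromosomes, fold 2.95), EMB25 (ISE2, a chloroplast RNA helicase, 2.72), EMB3011 (PRP16, a splicing helicase, 2.39), EMB2766 (nucleoporin NUP62, 2.06), EMB3126 (plastid ribosomal protein L1, 2.01) and EMB2770 (STA1, a splicing factor, 2.00). GRF3 replicate 1 alone had a peak at EMB1923 (2.06), and GRF3 replicate 2 alone at EMB1467 (CI76, a complex I subunit, 2.02).

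**Figure D5:**
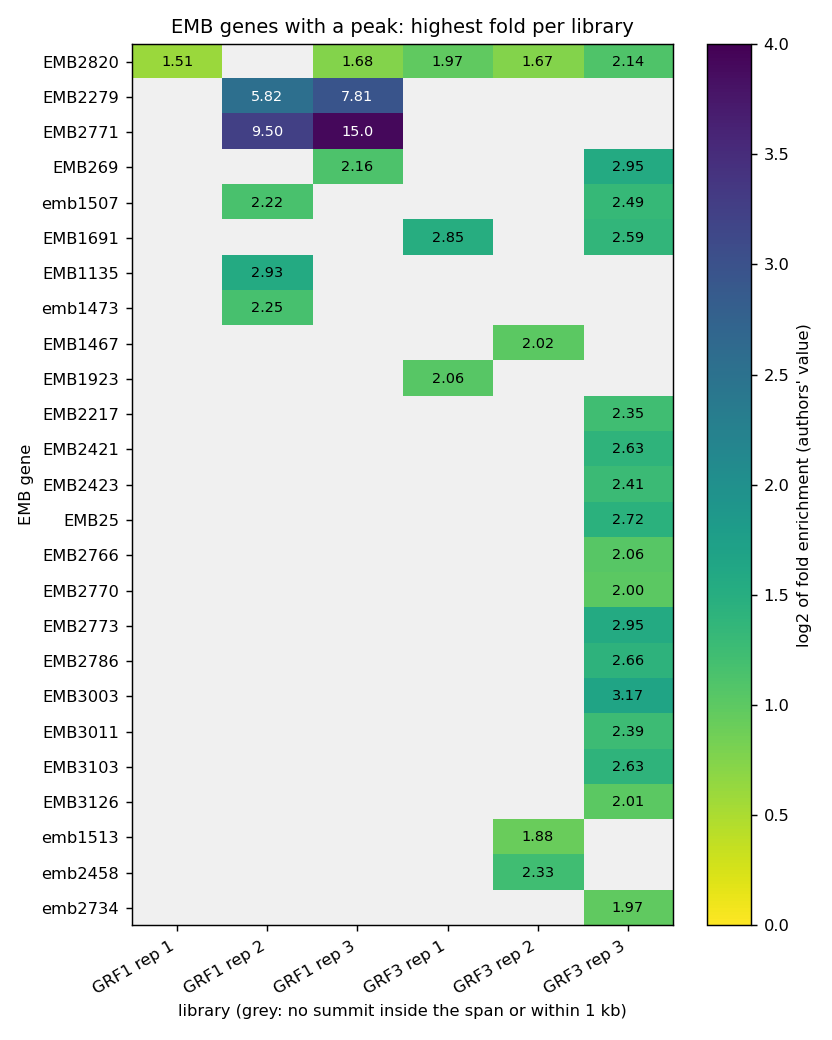
Highest fold (the authors' value, colour on a log2 scale) of the peaks inside the span or within 1 kb for the 25 EMB genes with a peak (rows) in the 6 libraries (columns); grey means no summit there. EMB2820 is filled in 5 libraries, EMB2771 and EMB2279 hold the 4 folds of at least 4, and most other genes are filled in GRF3 replicate 3 only.

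By function, the gene table's synonyms place 31 of the 160 members in a class, and 7 of these had a peak in some library, beside 22.0% of all genes. Without GRF3 replicate 3 it was 3 of 31, beside 14.1%. Metabolism had 0 of 6 and organelle RNA 0 of 3. Translation and tRNA had 1 of 4, splicing and RNA processing 1 of 5, ribosome 1 of 3, DNA replication and chromosomes 1 of 3, signalling and protein turnover 1 of 3, and plastid import, folding or division and membrane traffic 1 of 2 each. The synonyms give no function for the other 129 members, 18 of which had a peak, among them emb1507, EMB2770, EMB2279 and EMB25. These are described above as RNA-related genes, EMB2279 and EMB25 of organelles, so the class counts miss members. By chromosome, 9 of 38 members on chromosome 1 had a peak, beside 21.9% of all genes there, 2 of 30 on chromosome 2 (23.0%), 4 of 26 on chromosome 3 (22.9%), 3 of 23 on chromosome 4 (21.8%) and 7 of 43 on chromosome 5 (20.8%). Without GRF3 replicate 3 the counts on chromosomes 1 to 5 were 4, 1, 1, 2 and 4, beside 14.0%, 14.9%, 14.6%, 14.0% and 13.4% of all genes.

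Other gene families named for arrest in early reproduction gave mixed counts. The share of all genes with a GRF1 peak was 3.13%, 4.61% and 4.03% in replicates 1, 2 and 3, and with a GRF3 peak 7.38%, 5.67% and 14.5%. Of 44 MEE genes (maternal effect embryo arrest), 6, 7 and 7 had a peak of GRF1 (13.6%, 15.9% and 15.9%), above that share in each library. For GRF3 it was 8, 3 and 7 (18.2%, 6.82% and 15.9%), also above the share of all genes in each library. A GRF1 consensus region was found at 7 MEE genes (15.9%, beside 3.12% of all genes) and a GRF3 region at 5 (11.4%, beside 5.52%). Of 27 EDA genes (embryo sac development arrest), 2, 1 and 1 had a GRF1 peak (7.41%, 3.70% and 3.70%) and 2, 2 and 6 a GRF3 peak (7.41%, 7.41% and 22.2%). Of 6 OVA genes (ovule abortion), most of them for aminoacyl-tRNA synthetases, 0 had a GRF1 peak and 2 had a GRF3 peak in each library. Of 6 TTN genes (titan), 1 had a peak, in GRF3 replicate 3. The lists are small, their shares were not weighted for gene length, and their differences from the EMB genes were not tested.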

How the data were processed

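The authors deposited 1 narrowPeak list per library, with a score (in every row the whole-number part of 10 times −log10 q), a fold enrichment, which is a ratio, and −log10 values of p and q (each p-value and q-value on that scale). The submitters' processing notes name FastQC, Trimmomatic, Bowtie2 and MACS2, and TAIR10 as build, with no version of any tool. Settings and the control are not given in the sources used here. Gene names and spans are RefSeq's (TAIR10.1), without strand or exons; printed coordinates are those of the lists (TAIR10, counted from 1). Plants were of strain Ws and the assembly is of Columbia; the effect was not tested.

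Summits were assigned to every protein-coding gene whose span held them or lay within 1 kb, with Python 3.11.15, pandas 2.3.3 and numpy 2.4.6. Consensus regions were runs of peaks overlapping by at least 1 bp in at least 2 of 3 libraries; where a library had several peaks in a run, the most significant one gave the fold. Length weighting used 10 classes of equal size, others' shares being averaged with the EMB genes' class counts. Named genes were all members with a consensus region or peaks in 4 or more libraries, the highest fold per library, and the 3 on either side of the limit; any other gene was picked once its values had been seen. Functional classes came from synonyms alone. Members, lists and rules were chosen with earlier results of these data known, and no p-value was computed. Promoter motifs were planned but not searched here. The code was tested on simulated data. Alternatives are in the closing section.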

Additional observations from a re-analysis of the deposited data

How the results depend on the processing

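The EMB share over the length-weighted share stayed below 1 in all 19 alternatives for GRF1 (0.279 to 0.814) and all 19 for GRF3 (0 to 0.843). For GRF1 it was 0.814 inside the span only and 0.715 within 3 kb, for GRF3 0.843 within 3 kb. For GRF3, lists cut to equal length gave 0.192, and folds of at least 4 gave 0. EMB genes with a GRF1 region numbered 8 within 3 kb, 0 with regions in all 3 libraries and 0 to 2 on leaving out a replicate, 0 without replicate 3 and 1 without replicate 2. For GRF3 they numbered 12 within 3 kb, 4 with any base of the peak, 4 with synonyms too (263 members), 1 with a −log10 q of at least 5, with equal lists and with regions in all 3 libraries, 0 with a fold of at least 4, and 0 to 2 on leaving out a replicate (0 without replicate 3). The difference in EMB genes with a peak, GRF3 minus GRF1, turned to -0.333 with a −log10 q of at least 5, -1.33 with a fold of at least 4 and -2.00 with equal lists, and was 14.7 within 3 kb and 13.0 with synonyms. With replicates of the same number paired as a block it was 4.67 ± 7.37 (SD of the paired differences, n = 3), the same mean by construction. That equal numbers mark the same planting block is assumed and not stated in the labels. Alternatives added after seeing the data were genes outside gene-poor windows, free-flank classes, symbols in capitals only, the counts over several libraries without GRF3 replicate 3, and the shares without EMB2820 (0.328 for GRF1, 0.358 for GRF3). Apart from the construction of each alternative, the cause was not tested. Depth is unknown, so a gene without a peak is not shown to be unbound.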
